A study of Sus scrofa domesticus with 16 samples.

Results

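The genes described here encode the enzymes that oxidise, reduce and conjugate drugs, solvents, aldehydes and other small molecules, measured in whole adrenal glands of 16 pigs. A gene was included when its symbol in the array annotation began with CYP1, CYP2, CYP3 or CYP4 followed by a letter, or with GST, MGST, UGT1, UGT2, SULT, ALDH, AKR, ADH or FMO. That rule used names alone and found 48 of the 6765 genes with a symbol of their own, in 9 families. They were 16 cytochrome P450 genes, 11 aldehyde dehydrogenases (ALDH), 6 glutathione S-transferases (GST), 5 aldo-keto reductases (AKR), 3 sulfotransferases (SULT), 2 microsomal glutathione transferases (MGST), 2 genes whose symbol starts with ADH, 2 flavin-containing monooxygenases (FMO) and 1 glucuronosyltransferase (UGT). Each gene is given by its brightest probe set, the group of array oligonucleotides with the highest mean log2 signal over all animals.

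The high stress group was 8 domestic pigs from a mixing treatment of high aggressiveness, and the low stress group was 8 pigs from a mixing treatment of low aggressiveness. According to the submitters, the animals had been penned with unfamiliar pigs, and both groups were picked because they differed in fighting and in blood cortisol, so the groups are selected extremes and not a random assignment. All 16 glands were processed alike, with Trizol extraction of total RNA and biotin-labelled cRNA on the Affymetrix Porcine Genome Array, 1 array per animal. The comparison asks whether the enzymes' transcripts differed between glands of pigs chosen in this way.

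Drug-metabolising enzymes act in sequence. Oxidases and reductases such as the P450s, FMOs, ALDHs, ADHs and AKRs change a functional group, and transferases such as the GSTs, SULTs and UGTs then attach glutathione, sulfate or glucuronic acid, which makes the product easier to export. The liver is the main site of the P450s of these families, while the adrenal cortex uses other P450s to make steroids, a chemistry that also yields reactive oxygen. Several members also have housekeeping roles in amino acid, retinoid or aldehyde metabolism.

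Of the 48 genes, 28 had a mean log2 signal of at least 6.15 (a signal of 71.1), the level below which probe sets were not tested, and 20 lay under it. That level was the 40th percentile of all probe sets, so 14399 of 23999 reached it by construction. The latter count takes every probe set and not the brightest of each gene. All 6 GST genes, both MGST genes and both ADH genes were above that level, as were 9 of 11 ALDH, 3 of 5 AKR, 2 of 3 SULT, 1 of 2 FMO and 3 of 16 P450 genes, and the single UGT was not. None of the 28 tested members passed limma's test of high against low stress after Benjamini-Hochberg adjustment over 14399 probe sets (adjusted p = 0.999 for each), against 0 of 14399 probe sets overall (0%). At an unadjusted p under 0.05 the count was 1 of 28 members, CYP2E1, against 3.19% of all probe sets. Of the 28, 13 had a higher mean in high stress pigs and 15 a lower one, with a median log2 fold change of -0.02, against 5984 higher, 8415 lower and a median of -0.03 over all probe sets. Among the 15, ALDH5A1 and SULT1E1 reached the filter only through their low stress values. With arrays centred on their median the members split into 18 higher and 10 lower and all probe sets into 8761 higher and 5638 lower. With quantile normalization the members stayed at 13 higher and 15 lower, and all probe sets split into 7140 higher and 7259 lower. The balance of signs over all probe sets thus moved with both scalings, and that of the members with median centring. For 19 of the 28 members the 95% confidence interval lay within 0.5 of 0 on the log2 scale, a 1.41-fold difference either way. The same held for 8430 of all 14399 probe sets.

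**Figure D1:**
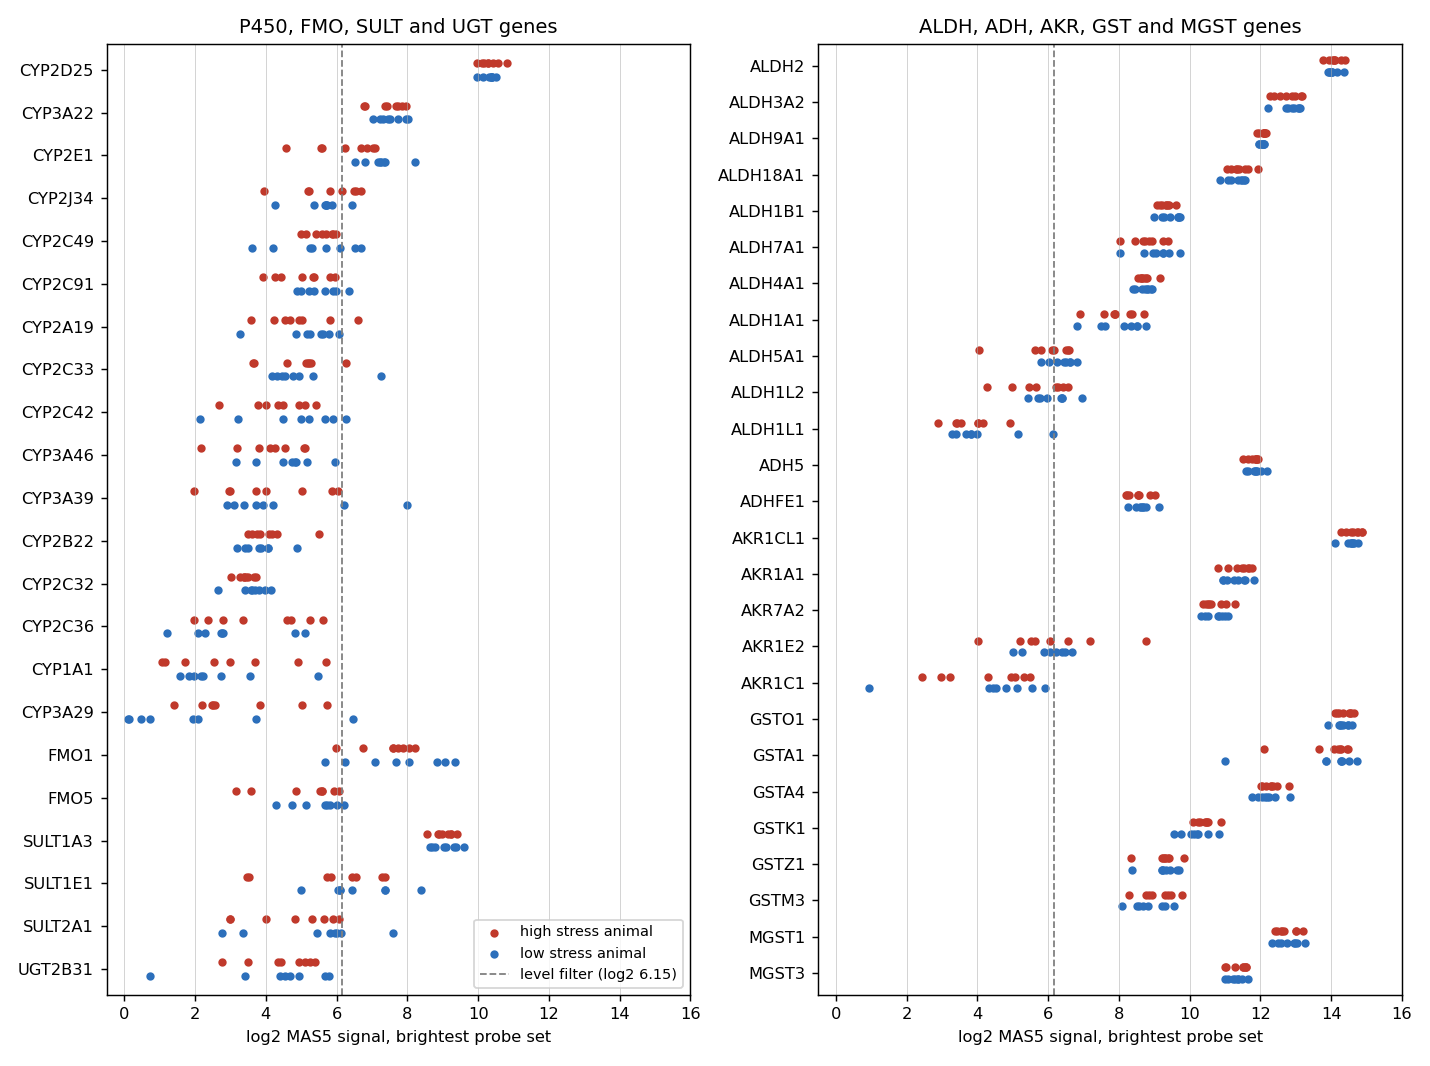
Log2 MAS5 signal of the brightest probe set of each member gene (horizontal axis), with 1 point per animal, high stress in red above low stress in blue and the level filter as a dashed line. All 6 GST and both MGST genes lie right of the line, whereas 13 of 16 P450 genes have a mean left of it.

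The signal of one probe set cannot be set against that of another as an amount of RNA, since each binds its own target with its own strength; levels below are read only against the filter and between animals. The arrays also fell into 2 groups of 8 (array sets) that the labels leave unmentioned, told apart by dap, a bacterial control RNA spiked in before labelling. Its signal was 3506 to 6107 on the high-spike arrays and 710.4 to 1053 on the low-spike arrays, and each group of arrays held 4 high stress and 4 low stress pigs, so values within each are given below. All 8 measured markers of the adrenal cortex (of 11 listed) and all 5 measured markers of chromaffin cells (of 9 listed) were above the filter, with list means of 13.01 ± 0.11 and 12.55 ± 0.32 (log2) in high stress pigs and 12.99 ± 0.16 and 12.50 ± 0.34 in low stress pigs (SD, n = 8 each). In RNA from a whole gland, fewer cells of a type and less RNA per cell cannot be told apart.

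CYP2E1, which in human and rodent liver oxidises ethanol and small solvents, had the largest difference among the tested members. Its log2 signal in high stress glands was 7.02, 6.70, 6.85, 7.10, 4.56, 5.58, 6.24 and 5.55 in replicates 1 to 8, and in low stress glands it was 7.17, 7.34, 8.21, 6.51, 6.80, 7.26, 7.22 and 7.38. All 8 high stress animals lay below the low stress mean, and 4 of them below the lowest low stress animal, but the other 4 fell inside the low stress range. The means were 6.20 ± 0.90 in high stress pigs and 7.24 ± 0.49 in low stress pigs (SD, n = 8 each). The log2 fold change was -1.04 (SE 0.33, 95% confidence interval -1.73 to -0.34), or 0.487-fold, and limma's adjusted p over all probe sets was 0.999 (unadjusted p = 0.00584).

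The lower value of CYP2E1 appeared in both groups of arrays, with a log2 fold change of -0.66 on the low-spike arrays and -1.42 on the high-spike arrays. These estimates did not differ detectably (limma interaction, difference -0.76, SE 0.67, adjusted p = 0.9996). With the array set as a block the unadjusted p was 0.00689 and the adjusted p 0.682. The labels number the animals, and each first digit of that number (3, 4, 5 or 8) covers 2 high stress and 2 low stress pigs. The 4 high stress values below the low stress range all belong to digits 5 and 8. The difference of CYP2E1 means, high minus low stress, was -0.40 for digit 3, -0.38 for digit 4, -1.96 for digit 5 and -1.40 for digit 8, and whether it differs between digits was not tested. The labels do not say what the digit marks. With it as a block the unadjusted p was 0.00232 and limma's adjusted p 0.999. Leaving out each animal in turn gave log2 fold changes from -1.17 to -0.80, all with the same sign. The mean log2 signal of CYP2E1 was 6.72, close above the filter, so the gene was dropped when the filter was raised to the 60th percentile. Its high stress mean of 6.20 was barely above the filter of 6.15, and the high stress values 4.56, 5.58 and 5.55 lay under it. Probe sets under the filter had a median pooled SD of 1.12, against 0.33 for those tested. The size of the CYP2E1 difference thus rests partly on signals in that noisier range.

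CYP2E1 is best known from liver and is also found in fat tissue. The means of both marker lists were lower in high stress pigs. The adipocyte difference rested largely on 1 gene, and the liver difference was smaller without 1 gland. The 5 measured adipocyte markers of 8 listed, 4 of them above the filter, averaged 6.58 ± 0.47 in high stress pigs (5.92 to 7.20) and 6.97 ± 0.49 in low stress pigs (6.005 to 7.47) on the log2 scale. Of these, ADIPOQ, the adiponectin gene, was under the filter with a mean of 3.25 in high stress pigs and 5.20 in low stress pigs. The other 4 markers, all above the filter, went both ways (high minus low stress, log2: FABP4 -0.07, LEP -0.32, CIDEA 0.24 and LPL 0.14) and together averaged 7.41 in high stress pigs and 7.42 in low stress pigs. With the adipocyte list as a covariate the log2 fold change of CYP2E1 was -1.14 (SE 0.37), against -1.04 (SE 0.33) without it. Since the list mean differed between groups mainly through ADIPOQ, this fit cannot tell what part fat tissue has in the CYP2E1 difference. The 11 measured liver markers of 12 listed, 3 of them above the filter, averaged 5.46 ± 0.48 in high stress pigs (5.04 to 6.59) and 5.89 ± 0.88 in low stress pigs (4.92 to 7.88). Without low stress replicate 6, the highest animal, the low stress mean of the liver list was 5.61 ± 0.38 (SD, n = 7) and the difference, high minus low stress, -0.15 in place of -0.43. High stress replicate 2, the highest of its group at 6.59, was kept in that comparison. All measured liver markers but APOC3 (high minus low stress, log2: 0.37) had a lower mean in high stress pigs. Their differences ran from -0.05 for HP to -1.01 for SERPINA1. The markers above the filter were HP, APOA1 (-0.09) and AHSG (-0.68). ALB, which encodes albumin, was under the filter at 4.87 in high stress pigs and 5.85 in low stress pigs. The part of the liver markers in the CYP2E1 difference was not tested.

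**Figure D2:**
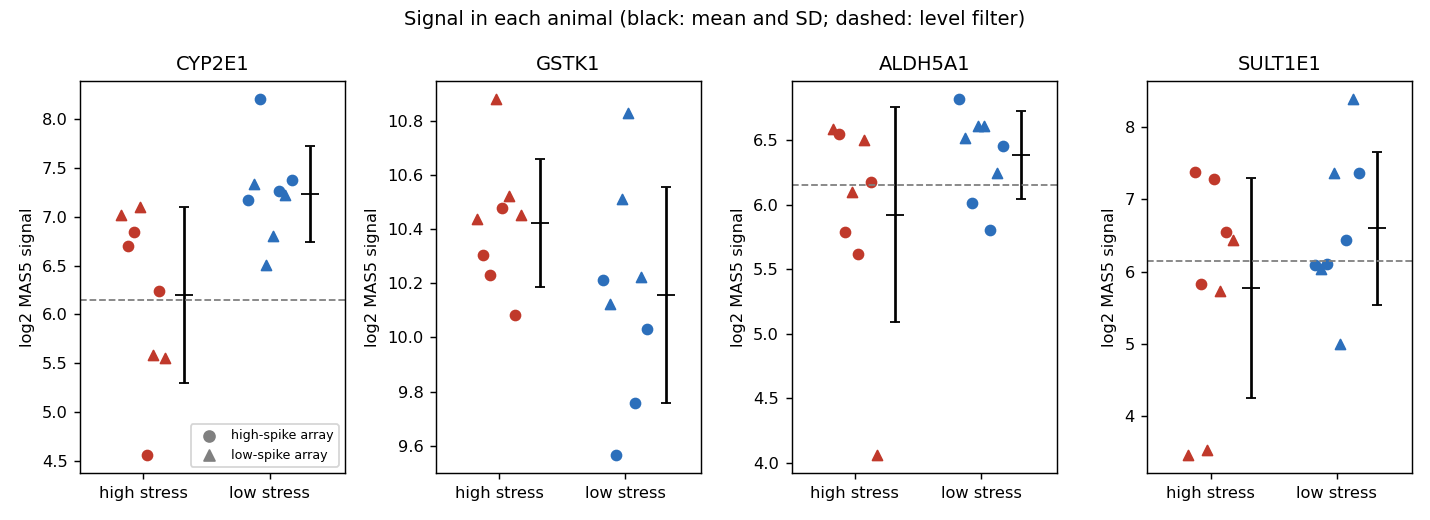
Log2 MAS5 signal (vertical axis) of the 4 member genes with the smallest unadjusted p, by animal, with circles for high-spike and triangles for low-spike arrays, the mean and SD in black and the level filter dashed where it falls in range. For CYP2E1 the 8 high stress animals range from 4.56 to 7.10 and the 8 low stress animals from 6.51 to 8.21, so the groups overlap.

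The 2 other P450 genes above the filter had group means that lay close together. CYP2D25, which hydroxylates vitamin D in pig liver, had a lowest, median and highest log2 signal of 9.98, 10.28 and 10.82 in high stress pigs, against 9.96, 10.35 and 10.50 in low stress pigs. The log2 fold change of CYP2D25 was 0.02 (SE 0.12). CYP3A22, one of the pig CYP3A enzymes, whose human relatives oxidise many drugs and steroids, ranged from 6.78 to 7.95 with a median of 7.55 in high stress pigs and from 7.03 to 8.03 with a median of 7.48 in low stress pigs. Its log2 fold change was -0.09 (SE 0.19), and the groups overlapped almost fully for both genes.

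The P450 genes under the filter were CYP1A1, CYP2A19, CYP2B22, CYP2C32, CYP2C33, CYP2C36, CYP2C42, CYP2C49, CYP2C91, CYP2J34, CYP3A29, CYP3A39 and CYP3A46, with mean log2 signals from 2.59 for CYP3A29 to 5.68 for CYP2J34. CYP1A1, the classical target of the aryl hydrocarbon receptor, had a mean of 2.83. These genes were not tested, and their signals scattered widely between animals of the same group. CYP3A39 was an example: its lowest, median and highest log2 signals were 1.97, 3.86 and 6.04 in high stress pigs, against 2.90, 3.83 and 7.995 in low stress pigs.

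Several of the highest values among these dim genes came from a single gland. Low stress replicate 6 had the highest signal of all 16 animals for 6 of the 20 members under the filter. They were CYP3A39 (7.995), CYP2C33 (7.26), CYP2C49 (6.69), CYP3A29 (6.48), CYP3A46 (5.96) and the folate enzyme gene ALDH1L1 (6.15). No other animal was highest for more than 3 of the 20. Low stress replicate 6 was highest for 1 of the 28 members above the filter. How often it was highest among all probe sets under the filter was not counted. The same gland had the highest mean of the liver marker list, 7.88, against at most 6.59 in any high stress gland and 6.10 in any other low stress gland. This pattern was picked out after the values were seen, and the part of the liver markers in it was not tested. CYP2E1 in that gland was 7.26, inside the range of the other low stress animals.

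Some members that lie side by side on the chromosome differed in whether they reached the filter, and others did not. In the order of genes in assembly Sscrofa11.1, CYP3A22, CYP3A46 and CYP3A29 follow each other with 0 protein-coding genes between them, and of these CYP3A22 was above the filter. CYP2C36, CYP2C32, CYP2C49 and CYP2C42 lie in one cluster with 1 gene between neighbours, and all of them were under it. Genes in such clusters are close copies, so a probe set may also bind transcripts of its neighbours, which was not tested.

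Among the flavin-containing monooxygenases, which oxygenate nitrogen and sulfur in drugs, FMO1 was above the filter and FMO5 (mean log2 signal 5.24) was under it. FMO1 signal was 7.87, 7.74, 7.59, 7.59, 6.75, 8.21, 5.97 and 8.06 in high stress replicates 1 to 8, and 9.33, 5.67, 7.68, 8.05, 7.10, 9.06, 8.83 and 6.24 in low stress replicates 1 to 8. The low stress animals held both the highest and the lowest values of the gene, and the high stress animals lay between them. The SD was 0.75 in high stress pigs and 1.34 in low stress pigs, and the log2 fold change was -0.27 (SE 0.49). On the low-spike arrays it was 0.52 and on the high-spike arrays -1.06, a difference that did not pass (limma interaction, adjusted p = 0.9996).

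The aldehyde dehydrogenases oxidise aldehydes to acids, and 9 of the 11 were tested, 4 with a higher and 5 with a lower mean in high stress pigs. ALDH2, the mitochondrial enzyme that clears acetaldehyde, had a lowest, median and highest log2 signal of 13.75, 14.07 and 14.39 in high stress pigs and 13.90, 14.01 and 14.35 in low stress pigs. The group means differed by 0.03 on the log2 scale (SE 0.10). ALDH9A1, which acts in carnitine synthesis, varied least of all members, from 11.91 to 12.15 in high stress pigs and from 11.96 to 12.09 in low stress pigs. With a pooled SD of 0.073 it had a confidence interval of -0.13 to 0.18 for its log2 fold change of 0.03. ALDH3A2, which handles fatty aldehydes, was at 12.76 ± 0.34 in high stress pigs and 12.85 ± 0.29 in low stress pigs (SD, n = 8 each).

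ALDH5A1, which oxidises succinic semialdehyde from the breakdown of GABA, sat exactly at the filter with a mean log2 signal of 6.15. High stress animals had 6.59, 6.55, 5.79, 6.10, 5.61, 6.50, 6.18 and 4.06, and low stress animals 6.82, 6.51, 6.01, 6.61, 6.61, 5.80, 6.25 and 6.45, in replicates 1 to 8. High stress replicate 8 stood apart below all other animals. The log2 fold change was -0.46 (SE 0.29, adjusted p = 0.999 by limma) with that animal and -0.20 without it. Just inside the filter with it were SULT1E1 at 6.19 and CYP2E1 at 6.72, and just outside were AKR1E2 at 6.06, ALDH1L2 at 5.92 and CYP2J34 at 5.68. The mean of ALDH5A1 was 5.92 in high stress pigs, under the filter, and 6.38 in low stress pigs. It was thus tested only through its low stress values, which favours a lower high stress mean, so its direction cannot be read.

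ALDH7A1, which degrades a lysine intermediate, gave opposite signs from its probe sets. The brightest one had a mean of 8.79 ± 0.43 in high stress pigs and 9.05 ± 0.51 in low stress pigs (log2 fold change -0.26, SE 0.22), and the second one 7.41 ± 0.54 in high stress pigs and 7.21 ± 0.55 in low stress pigs (0.20, SE 0.25), so no direction can be given for the gene. ALDH1B1, a mitochondrial aldehyde dehydrogenase, averaged 9.31 ± 0.17 in high stress pigs and 9.46 ± 0.27 in low stress pigs (-0.15, SE 0.12), with 7 of 8 high stress animals below the low stress mean. ALDH18A1, which makes the precursor of proline and ornithine, averaged 11.43 ± 0.28 in high stress pigs and 11.31 ± 0.25 in low stress pigs (0.11, SE 0.14).

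ALDH4A1, an enzyme of proline breakdown, had a mean of 8.73 ± 0.19 in high stress pigs and 8.71 ± 0.19 in low stress pigs (SD, n = 8 each). ALDH1A1, which turns retinaldehyde into retinoic acid, ranged from 6.89 to 8.70 in high stress pigs and from 6.82 to 8.77 in low stress pigs. Its 2 probe sets had log2 fold changes of -0.09 and -0.13. ALDH1L1 and ALDH1L2, which oxidise formyl-folate in the cytosol and the mitochondrion, were under the filter.

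ADH5, which oxidises the glutathione adduct of formaldehyde and reduces S-nitrosoglutathione, had a lowest, median and highest log2 signal of 11.51, 11.86 and 11.92 in high stress pigs, against 11.60, 11.85 and 12.18 in low stress pigs. The log2 fold change was -0.07 (SE 0.10). ADHFE1, which shares only the name prefix and encodes a mitochondrial transhydrogenase of hydroxy acids, averaged 8.53 ± 0.30 in high stress pigs and 8.65 ± 0.25 in low stress pigs (SD, n = 8 each). Its log2 fold change of -0.12 (SE 0.14) was made of 0.15 on the low-spike and -0.39 on the high-spike arrays. It was the 1 member of 28 whose difference between array sets had an unadjusted p under 0.05 (0.0489, adjusted p = 0.9996 by limma), against 2.92% of all probe sets.

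The aldo-keto reductases reduce aldehydes and ketones with NADPH. AKR1CL1, named for its likeness to the AKR1C enzymes, had a lowest, median and highest log2 signal of 14.26, 14.66 and 14.87 in high stress pigs and 14.10, 14.58 and 14.75 in low stress pigs. Its log2 fold change was 0.09 (SE 0.11), and the other 2 probe sets gave 0.35 (SE 0.32) and 0.82 (SE 0.45), the same sign with wider errors. The dimmest of the 3 had the widest range, from 7.85 to 10.68 in high stress pigs and from 7.23 to 10.19 in low stress pigs. AKR1A1, an aldehyde reductase of broad range, gave a log2 fold change of 0.10 (SE 0.16), and AKR7A2, which reduces succinic semialdehyde and aflatoxin dialdehyde, one of -0.02 (SE 0.15). AKR1C1, a hydroxysteroid dehydrogenase in humans, and AKR1E2 were under the filter, although AKR1E2 reached 8.78 in high stress replicate 6.

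The glutathione S-transferases were all above the filter, and 5 of the 6 had a higher mean in high stress pigs, none past the test. Over all probe sets tested 41.6% had a higher mean, and whether the family departs from that share was not tested. GSTA1, among the 5, had the opposite sign on its second probe set (-0.11, SE 0.37). GSTO1, an omega-class enzyme that reduces dehydroascorbate, had a lowest, median and highest log2 signal of 14.11, 14.42 and 14.64 in high stress pigs and 13.90, 14.31 and 14.58 in low stress pigs (log2 fold change 0.08, SE 0.11). GSTK1, the kappa-class enzyme of mitochondria and peroxisomes, was at 10.44, 10.30, 10.23, 10.88, 10.48, 10.52, 10.08 and 10.45 in high stress replicates 1 to 8, against 10.21, 10.12, 9.57, 10.51, 10.83, 9.76, 10.22 and 10.03 in low stress replicates 1 to 8. While 7 of 8 high stress animals were above the low stress mean, low stress replicate 5 was above all but 1 high stress animal. The log2 fold change of GSTK1 was 0.27 (SE 0.16), with 0.15 on the low-spike arrays and 0.38 on the high-spike arrays. With the array set as a block its unadjusted p was 0.0472 and its adjusted p 0.782.

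GSTM3, a mu-class transferase, averaged 9.09 ± 0.48 in high stress pigs and 8.84 ± 0.48 in low stress pigs (log2 fold change 0.25, SE 0.22). GSTA4, which conjugates the lipid peroxidation product hydroxynonenal, averaged 12.31 ± 0.25 in high stress pigs and 12.19 ± 0.32 in low stress pigs (0.12, SE 0.15). GSTZ1, which isomerises maleylacetoacetate in tyrosine breakdown, averaged 9.26 ± 0.42 in high stress pigs and 9.27 ± 0.40 in low stress pigs (-0.01, SE 0.20). Both microsomal transferases, which sit in membranes and also reduce lipid peroxides, had group means close together, with log2 fold changes of -0.05 (SE 0.15) for MGST1 and 0.07 (SE 0.12) for MGST3. MGST1 ranged from 12.41 to 13.21 in high stress pigs and from 12.31 to 13.25 in low stress pigs.

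**Figure D3:**
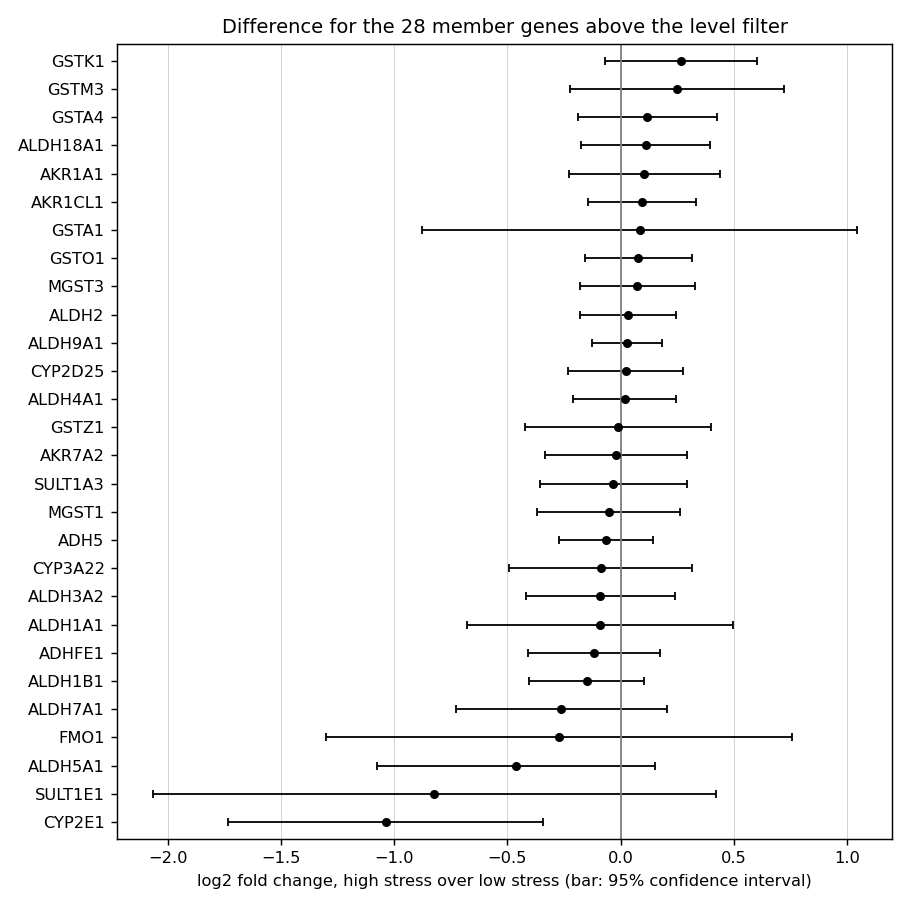
Log2 fold change of each of the 28 tested member genes, high over low stress (horizontal axis), with the 95% confidence interval as a bar. The interval of 1 gene, CYP2E1 (-1.73 to -0.34), does not cross 0, and the intervals of SULT1E1, FMO1 and GSTA1 are the widest.

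GSTA1, an alpha-class transferase that conjugates electrophiles and reduces organic peroxides, was bright in nearly every gland and far dimmer in a pair of them. On its brightest probe set the log2 signal was 12.11 in high stress replicate 2 and 13.66 to 14.48 in the other high stress animals. In low stress it was 10.98 in replicate 1 and 13.84 to 14.72 in the others. The second probe set gave 12.74 and 11.43 for the same 2 animals, the lowest values of their groups, so both bright probe sets placed these animals low. Both were on high-spike arrays. On the second probe set high stress replicate 3, at 13.01, was close to high stress replicate 2. Over all animals the brightest probe set averaged 13.93 ± 0.78 in high stress pigs and 13.85 ± 1.19 in low stress pigs (SD, n = 8 each), with a log2 fold change of 0.08 (SE 0.46). That sign depended on these animals: the value was -0.32 without low stress replicate 1 and 0.34 without high stress replicate 2.

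The third and dimmest GSTA1 probe set followed another pattern. It read 12.98 in high stress replicate 1, 12.18 in high stress replicate 2 and 13.72 in low stress replicate 8. In the remaining animals it lay between 6.56 and 10.43 in high stress pigs and between 5.52 and 10.23 in low stress pigs. High stress replicate 2 was thus among the highest animals on this probe set and the lowest of its group on the other 2. The log2 fold changes of the 3 probe sets were 0.08, -0.11 and 0.42, with standard errors of 0.46, 0.37 and 0.94. GSTA4, which follows GSTA1 in the gene order with 2 genes between them, was at 12.16 in high stress replicate 2 and 11.77 in low stress replicate 1.

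**Figure D4:**
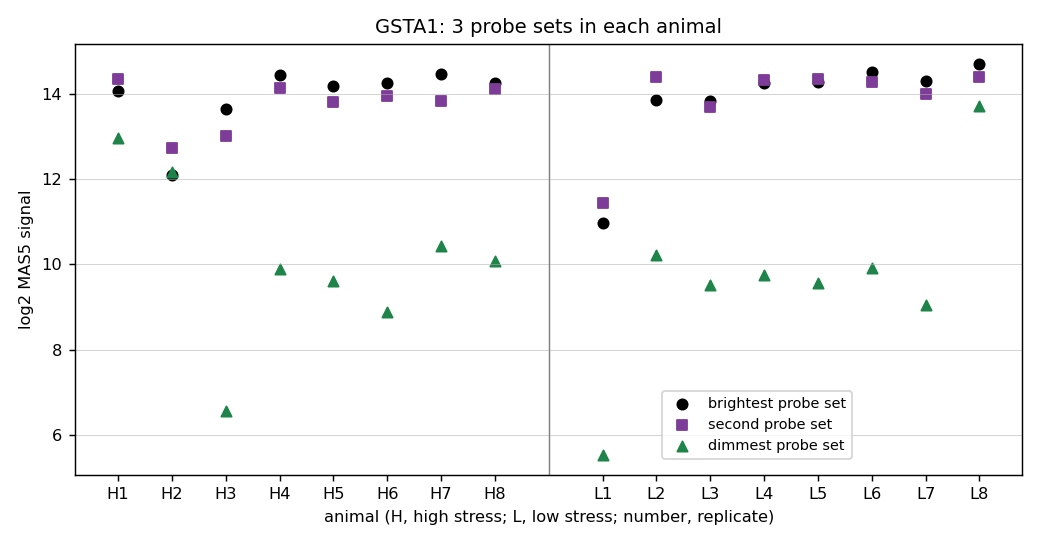
Log2 MAS5 signal of the 3 GSTA1 probe sets (vertical axis) in each animal, high stress left and low stress right of the line. The brightest and second probe sets (black and purple) drop together in H2 and L1, while the dimmest (green) is at 12.18 to 13.72 in H1, H2 and L8 and at most 10.43 elsewhere.

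The sulfotransferases attach sulfate to phenols, catecholamines and steroids. SULT1A3, whose human form sulfates dopamine, had a lowest, median and highest log2 signal of 8.55, 9.05 and 9.41 in high stress pigs and 8.65, 9.06 and 9.61 in low stress pigs. Its log2 fold change was -0.03 (SE 0.15), and its sign turned under several settings. SULT2A1, which sulfates the adrenal androgen DHEA in the human gland, was under the filter with a mean log2 signal of 5.05. It spanned 2.99 to 6.07 in high stress pigs and 2.76 to 7.58 in low stress pigs. UGT2B31, the only glucuronosyltransferase, was also under the filter (mean 4.37), with 2.76 to 5.38 in high stress pigs and 0.72 to 5.78 in low stress pigs.

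SULT1E1, the oestrogen sulfotransferase, varied most between animals of the same group among the tested members, with a pooled SD of 1.31. Its signal was 3.46, 7.38, 5.84, 3.53, 7.29, 5.73, 6.55 and 6.44 in high stress replicates 1 to 8. In low stress replicates 1 to 8 it was 6.09, 6.04, 6.10, 7.36, 5.004, 6.44, 8.39 and 7.36. High stress replicates 1 and 4, both on low-spike arrays, were lower than every other animal. The high stress mean of 5.78 was under the filter and the low stress mean of 6.60 above it. SULT1E1 was thus tested only through its low stress values, which favours a lower high stress mean. The log2 fold change of -0.82 (SE 0.59) was made of -1.91 on the low-spike and 0.26 on the high-spike arrays, and the difference between these did not pass (2.18, SE 1.03, limma interaction, adjusted p = 0.9996).

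**Figure D5:**
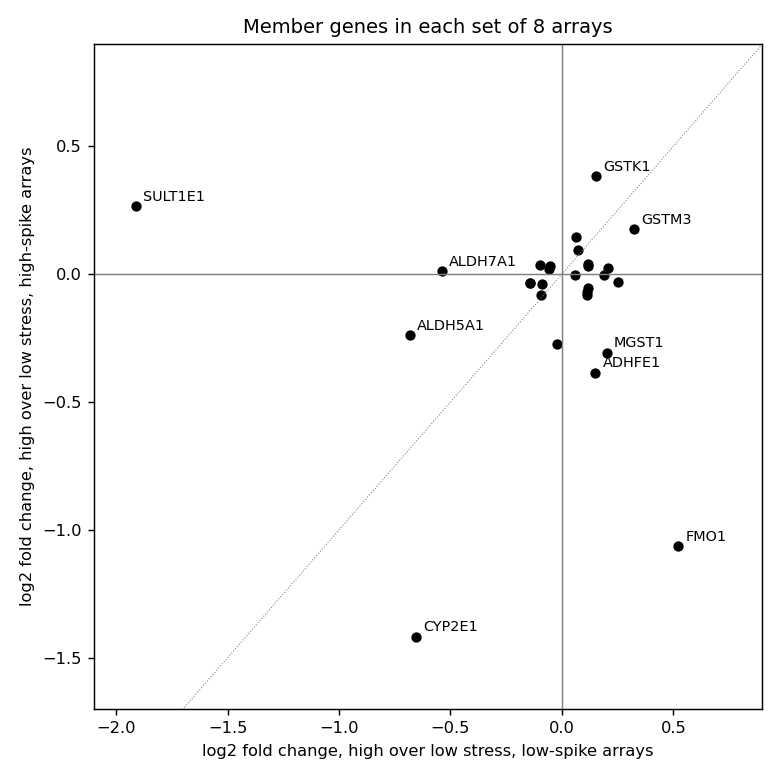
Log2 fold change, high over low stress, of the 28 tested members on the low-spike arrays (horizontal axis) and on the high-spike arrays (vertical axis), each from 4 against 4 animals, with the diagonal dotted. Of the 28 genes, 14 have the same sign in both, and CYP2E1 is the point lowest on the vertical axis at -1.42.

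The level of several members differed between the array sets. At an adjusted p under 0.05 in limma, 10 of 28 members differed between the sets, 9 lower and 1 higher on the high-spike arrays, against 40.1% of all probe sets. SULT1A3 (log2 difference -0.49, SE 0.09) and AKR1A1 (-0.49, SE 0.10) had the largest of the negative differences, and ALDH1A1 (0.71, SE 0.23) was the one that was higher. The others were GSTK1, GSTO1, CYP2D25, MGST3, ADH5, AKR1CL1 and ALDH3A2. The stress difference did not differ between the sets for any of the 28 members after adjustment (0% of all probe sets). With the set as a block 0 members passed, against 0.00694% of all probe sets, and 2 members, CYP2E1 and GSTK1, had an unadjusted p under 0.05, against 6.38% of all probe sets. A Y-linked probe set had a log2 signal above 9 in 4 of 8 animals of each group. With stress and array set in the model, 0 of 28 members followed that Y-linked signal at an adjusted p under 0.05, against 0.0486% of all probe sets.

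The tested members differed widely in their spread between animals of one group. The median pooled SD of the 28 was 0.31 on the log2 scale, against 0.33 over all probe sets tested. SULT1E1, FMO1 (1.08), GSTA1 (1.01) and CYP2E1 (0.72) were the most variable, and ADH5 (0.17) and ALDH9A1 the least. For the 20 members under the filter the median pooled SD was 0.93, against 1.12 over all probe sets under it.

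Genes that serve these enzymes were read from the same fit. Of 14 listed xenobiotic receptors and redox regulators 9 were measured and 3 tested, 2 higher and 1 lower, none past the test. AHR, the receptor that induces CYP1A1, gave a log2 fold change of -0.10 (SE 0.28), PPARGC1A, a coactivator, 0.22 (SE 0.29), and CEBPB, a transcription factor of the acute response, 0.04 (SE 0.15). All 7 measured P450 electron donors of 9 listed were tested, 5 higher and 2 lower, none past the test. POR, the reductase that feeds electrons to the microsomal P450s, averaged 11.05 ± 0.21 in high stress pigs and 10.95 ± 0.15 in low stress pigs (0.11, SE 0.11). CYB5B, the mitochondrial outer membrane cytochrome b5, had the largest value of the list (0.31, SE 0.17), with 0.11 (SE 0.08) for FDXR, the reductase of mitochondrial P450s, and 0.07 (SE 0.14) for CYB5R1.

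Of 15 listed genes that make, recycle or use glutathione beside the transferases, 11 were measured and 10 tested, 5 higher and 5 lower, none past the test. GPX1, the cytosolic glutathione peroxidase, averaged 13.16 ± 0.13 in high stress pigs and 12.61 ± 0.31 in low stress pigs (SD, n = 8 each). Its log2 fold change of 0.55 (SE 0.12) had an unadjusted p of 0.000373 and an adjusted p of 0.999 in limma, or 0.399 with the array set as a block. GSR, which regenerates glutathione, was at -0.12 (SE 0.08), GCLM, a subunit of the enzyme that starts its synthesis, at 0.24 (SE 0.17), and GGT1, which breaks it down outside the cell, at -0.32 (SE 0.25).

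Of 33 listed genes of other conjugation, hydrolysis and export, 18 were measured and 13 tested, 6 higher and 7 lower, none past the test. MAOB, a monoamine oxidase whose aldehyde products are substrates of the ALDHs, averaged 12.00 ± 0.35 in high stress pigs and 11.67 ± 0.31 in low stress pigs (0.34, SE 0.16, adjusted p = 0.999 in limma). HMOX1, which degrades haem, gave a log2 fold change of 0.19 (SE 0.15), EPHX1, the microsomal epoxide hydrolase, -0.20 (SE 0.16), and CES3, a carboxylesterase, -0.33 (SE 0.25). Of 12 listed steroid and sterol P450s, 5 were measured and 3 tested, 2 higher and 1 lower. CYP11A1, which cuts the side chain of cholesterol, gave a log2 fold change of 0.03 (SE 0.10), CYP17A1, on the way to cortisol, 0.10 (SE 0.17), and CYP27A1, a sterol hydroxylase, -0.05 (SE 0.15).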

How the data were processed

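The deposited table holds linear intensity values, 1 column for each of the 16 animals, which the authors made by MAS5; the submitters' processing notes name version 1.1.1 of Affymetrix Expression Console. On every array the mean without the top and bottom 2% of probe sets was 500, so arrays had been scaled as a whole. Control probe sets (124) were set aside and 23999 kept, of which 10069 carried 1 gene symbol. Signals were taken to log2, and the 14399 probe sets with a mean at or above the 40th percentile (6.15) were tested in R 4.3.3 using lmFit and eBayes of limma 3.58.1 (two-sided), with Benjamini-Hochberg adjustment over all of them and a threshold of adjusted p under 0.05. Array medians were 116 to 147, and the number of arrays limits the precision.

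Of the 48 genes, 47 matched the RefSeq gene table of assembly Sscrofa11.1, used for names and gene order only. A further 6 probe sets carried several symbols that fit the rule, none above the filter, and were not named. For the 15 genes with more than 1 probe set the brightest was used. The genes given values were CYP2E1, the 10 tested members with the smallest p, the brightest member of each family, and the 4 genes with the smallest p in each partner list. Members whose tested probe sets had opposite signs, with at least 1 log2 fold change of size 0.3 or more, were also given. Other members are given by level class and in short. The members, gene lists and array sets were chosen with earlier results of these data known. Whether animals shared a pen was not used here, and p-values treat animals as independent. Alternatives were quantile normalization, arrays centred on their median, no filter or one at the 60th percentile, a signal of 23.5 added before log2, an intensity trend with robust prior, array weights, a block for the array set or for the first digit of animal numbers, single array sets, covariates (actin ratio, Y-linked, chromaffin and adipocyte signal), averaging a gene's probe sets, and leaving out each animal. The Y-linked signal as a tested term, the CYP2E1 values by first digit and the shortened marker lists were added after the data were seen. The scripts were tested on simulated data. Plots used Python 3.11.15 and matplotlib 3.10.9.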

Additional observations from a re-analysis of the deposited data

Results flagged for a closer look

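In 7 of 74 groups of 8 animals, an end value lay farther from its nearest neighbour than Dixon's critical ratio for 8 values allows. Chance does this in about 1 of 20 groups when values are independent and normally distributed. The 74 groups come from the same 16 animals and their distribution was not tested, so the count cannot be read as an excess over chance. The log2 signal of ALDH5A1 in high stress replicate 8 was 4.06, with the next animal at 5.61. GSTA1 was 12.11 in high stress replicate 2, with the next animal at 13.66, and 10.98 in low stress replicate 1, with the next at 13.84. UGT2B31, under the level filter, was 0.72 in low stress replicate 4, with the next animal at 3.42. The other 3 values belonged to low stress replicate 3: AKR1CL1 was 14.10 with the next animal at 14.47, CYP11A1 was 13.97 with the next at 14.42, and CYB5R1 was 9.53 with the next at 9.95.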

How the results depend on the processing

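No member passed under any of the alternatives, and 0 of 1176 adjusted p-values of the 36 genes followed lay under 0.05; 18 of these genes kept their sign throughout. CYP2E1 kept it in all its alternatives, with adjusted p from 0.571 to 1. The count over all probe sets was 1 with the array set as a block, with the block and quantile normalization, and with the block and the actin ratio. Members at an unadjusted p under 0.05 numbered 2 with the block, 2 with the block and quantile normalization, 0 with the filter at the 60th percentile, which drops CYP2E1, and 1 to 2 when single animals were left out (2 without low stress replicate 1 or 5). Members whose level differed between array sets numbered 6 with quantile normalization. On the high-spike arrays alone the log2 fold change changed sign for SULT1E1 (0.26), AHR (0.30), ALDH7A1 (0.0119), SULT1A3 (0.0356), AKR1CL1 (-0.0030), ALDH18A1 (-0.0297), ALDH2 (-0.0529), CYP2D25 (-0.0706), GCLM (-0.0319) and CYP11A1 (-0.0524), and on the low-spike arrays alone for FMO1 (0.52), MGST1 (0.20), ADHFE1 (0.15), CYP27A1 (0.0425) and CEBPB (-0.0426). Median centring turned ADH5 (0.0075), MGST1 (0.0201), SULT1A3 (0.0413) and CYP27A1 (0.0277). Quantile normalization, with or without the block, turned ALDH2 (-0.0002) and SULT1A3 (0.0004). Array weights turned CYP2D25 (-0.0082) and SULT1A3 (0.0204), the actin ratio with the block turned FMO1 (0.0027) and CYP27A1 (0.0206), the adipocyte covariate turned SULT1A3 (0.0086) and CYP27A1 (0.0560), and the mean of its probe sets turned GCLM (-0.0186). Leaving out single animals turned the sign of 10 genes, with ranges of -0.0119 to 0.0792 for ALDH2, -0.12 to 0.0123 for MGST1, -0.0496 to 0.0705 for CYP2D25, -0.0909 to 0.0458 for SULT1A3, -0.32 to 0.34 for GSTA1, -0.26 to 0.0513 for AHR, -0.0793 to 0.10 for CEBPB, -0.0047 to 0.14 for CYB5R1, -0.11 to 0.0148 for CYP27A1 and -0.0363 to 0.0598 for CYP11A1. The cause of these changes was not tested. A block for the first digit of animal numbers gave 0 members past the test and 1, CYP2E1, at an unadjusted p under 0.05, as without it; the labels do not say that the digit pairs animals. Signal close to the filter limits what can be read for CYP2E1, ALDH5A1 and SULT1E1, and the 20 members under it were not tested.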
